A study of Zea mays subsp. mays with 11 samples.

Results

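The meiotic 24-PHAS loci described here are B73_24PHAS_14671, B73_24PHAS_14681, B73_24PHAS_32590 and B73_24PHAS_48391. A PHAS locus is a genomic interval that gives rise to phased small interfering RNAs (phasiRNAs). They were chosen by their measured abundance in these libraries, for a loss of phasiRNAs from ago18 triple mutant anthers that was much larger at 5 mm than at 2 mm anther length. The 4 loci belong to the 154 meiotic 24-PHAS loci, and the whole series also measured 75 premeiotic 24-PHAS loci and 430 21-PHAS loci. The values that chose the loci are the values described here, so they are given with their errors as a description. Where a count of called loci is given for them, the choice of the loci had a part in it, and it is no evidence.

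Small RNAs bound to Argonaute (AGO) proteins were isolated from maize anthers with the TraPR column method and sequenced. The plants were mostly B73, and every plant carried the same 3 mutations. The ago18a and ago18b alleles are CRISPR-made single-nucleotide deletions and the ago18c allele is a Mu transposon insertion, in transgene-free material. The triple homozygous mutant (ago18HM) carried them in both copies and the triple heterozygous siblings (ago18HT) in one copy, so no group was free of the mutations. Meiotic anthers of 2 mm gave 3 ago18HT and 2 ago18HM libraries, and postmeiotic anthers of 5 mm gave 3 libraries of each genotype. The replicates came from distinct plants. Abundance is in CPM, read counts scaled to the depth of each library, with reads that map to several positions included.

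In grass anthers, miR2275 directs cleavage of the precursors of meiotic 24-PHAS loci, RDR6 makes the cleaved RNA double-stranded, and DCL5 dices it into 24-nt phasiRNAs. These small RNAs are made chiefly in the tapetum, the cell layer that nourishes the developing pollen, and act once loaded into an AGO protein. AGO18 is an AGO clade of the grasses, and maize AGO18b binds phasiRNAs. In whole anthers, fewer phasiRNA-making cells and less loaded RNA per cell cannot be told apart.

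The most abundant small RNA of each locus is shown because it separates the 4 loci into a pair with the same sequence and 2 loci without a close match to it. The other small RNAs of the loci were not compared. These sequences were annotated in other anther libraries of the study, and the capital marks the first base, the end that an AGO protein anchors.
B73_24PHAS_14671: Agagaauuccuaaugaagcaucuu
B73_24PHAS_14681: Agagaauuccuaaugaagcaucuu
B73_24PHAS_32590: Aaagagaguugucauuauagguug
B73_24PHAS_48391: Aagacacuguucuacuugcuucuc

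All 4 sequences are 24 nt long and begin with A, as the most abundant small RNA does at 144 of the 154 meiotic loci (93.5%). The sequence of B73_24PHAS_14671 is identical to that of B73_24PHAS_14681, whereas 18 meiotic loci (11.7%) shared theirs with any other meiotic locus. A read of this sequence maps to both loci and could be counted at both, so their CPM are not taken as independent. Compared position by position, neither B73_24PHAS_32590 nor B73_24PHAS_48391 had a relative within 8 differences of 24 bases.

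B73_24PHAS_14671 lies at chr2:234934303-234935539 and B73_24PHAS_14681 at chr2:234984622-234985591 of B73 RefGen_v5, both on the plus strand and 49082 bases apart. B73_24PHAS_32590 lies at chr5:219764853-219765833 and B73_24PHAS_48391 at chr9:14069161-14071221, and neither has an assigned strand, as at 63 of the meiotic loci (40.9%). Their lengths are 1237, 970, 981 and 2061 nt, against a median of 1275.5 nt over the meiotic loci. None overlaps a RefSeq gene. The nearest genes are protein-coding: LOC100286031 at 243 bases from B73_24PHAS_14671, LOC103649432 at 1788 bases from B73_24PHAS_14681, LOC118472121 at 7528 bases from B73_24PHAS_32590 and LOC103637971 at 19846 bases from B73_24PHAS_48391.

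The libraries differed in depth, and depth differed with anther length: the CPM denominators, estimated from the smallest step between CPM values, corresponded to 33076189 to 53038060 reads at 2 mm and 5419067 to 17805878 reads at 5 mm. The part of depth in the difference between lengths cannot be told apart from anther length. At the 4 loci the estimated reads behind one value ranged from 329 to 93604. The thinnest, B73_24PHAS_48391 in ago18HM-5mm replicate 3, has, if that estimate holds, an exact Poisson 95% interval of 294.4 to 366.5 reads, and such intervals cover counting error only. The summed CPM of the meiotic loci was 117705 in ago18HT-2mm replicate 1, against 206990 and 237337 in the other ago18HT libraries at 2 mm. Results that turn on that library are given with and without it.

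At B73_24PHAS_14671, the ago18HT libraries gave 624.8, 1183 and 865.1 CPM at 2 mm and 2513, 2057 and 2756 CPM at 5 mm. The ago18HM libraries gave 306.0 and 413.3 CPM at 2 mm and 143.9, 167.9 and 138.6 CPM at 5 mm. No 2 of the 4 groups overlapped: abundance was highest in the heterozygous siblings at 5 mm and lowest in the mutant at 5 mm. The means were 891 ± 280 (SD, n = 3) and 359.6 ± 75.9 CPM (n = 2) in ago18HT and ago18HM at 2 mm, and 2442 ± 355 and 150.1 ± 15.6 CPM (n = 3 each) at 5 mm. The siblings therefore had 2.48 times the mutant mean at 2 mm and 16.3 times at 5 mm.

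B73_24PHAS_14681, which makes the same most abundant small RNA, gave nearly the same picture. Its ago18HT libraries held 572.6, 1111 and 866.1 CPM at 2 mm and 2893, 2158 and 3118 CPM at 5 mm. Its ago18HM libraries held 280.8 and 357.8 CPM at 2 mm and 150.5, 188.0 and 151.3 CPM at 5 mm. Again the 4 groups did not overlap. The means were 850 ± 269 (SD, n = 3) and 319.3 ± 54.4 CPM (n = 2) at 2 mm, and 2723 ± 502 and 163.3 ± 21.5 CPM (n = 3 each) at 5 mm, for ago18HT and ago18HM. The siblings had 2.66 times the mutant mean at 2 mm and 16.7 times at 5 mm.

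B73_24PHAS_32590 was the most abundant of the 4 in ago18HT at 2 mm, with 2142, 2262 and 2181 CPM. At 5 mm its ago18HT libraries held 3197, 2423 and 2513 CPM. The mutant held 635.0 and 811.9 CPM at 2 mm and 161.9, 239.2 and 167.8 CPM at 5 mm. The heterozygous groups thus lay close together without overlapping, while the mutant groups lay far apart. The sibling and mutant means were 2195 ± 61.2 (SD, n = 3) and 723.5 ± 125 CPM (n = 2) at 2 mm, and 2711 ± 423 and 189.6 ± 43.0 CPM (n = 3 each) at 5 mm. The siblings had 3.03 times the mutant mean at 2 mm and 14.3 times at 5 mm.

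B73_24PHAS_48391 reached the lowest values of the 4. Its ago18HT libraries held 851.7, 1574 and 1577 CPM at 2 mm and 2432, 2370 and 1681 CPM at 5 mm. The mutant held 379.7 and 385.8 CPM at 2 mm but only 51.0, 64.8 and 49.3 CPM at 5 mm. The highest ago18HT library at 2 mm and the lowest at 5 mm were close, and the mutant groups were well separated. Sibling and mutant means were 1334 ± 418 (SD, n = 3) and 382.8 ± 4.35 CPM (n = 2) at 2 mm, and 2161 ± 417 and 55.0 ± 8.49 CPM (n = 3 each) at 5 mm. The siblings had 3.49 times the mutant mean at 2 mm and 39.3 times at 5 mm, the widest gap among the 4.

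**Figure D1:**
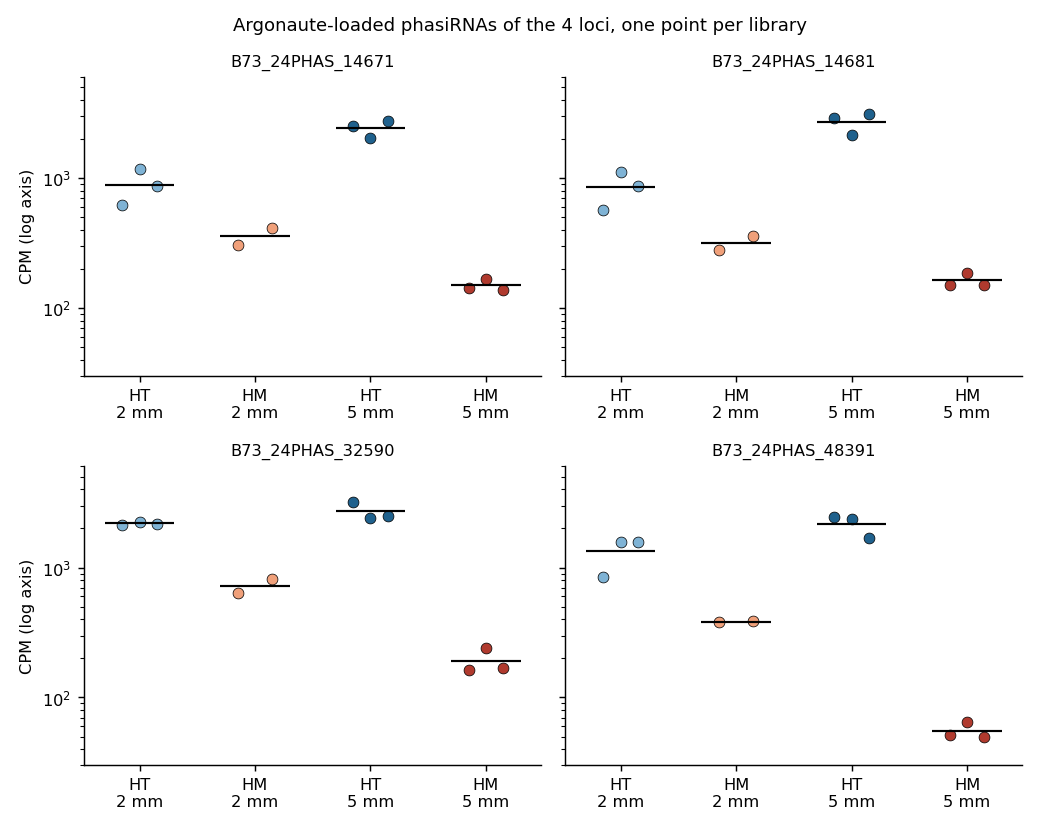
CPM (log axis) of the 4 loci in each of the 11 libraries, by genotype (HT, triple heterozygous siblings; HM, triple homozygous mutant) and anther length, with 1 point per library and a line at the group mean. In every panel the HM libraries lie below the HT libraries at both lengths, and the HM libraries at 5 mm are the lowest of all.

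On the log2(CPM + 1) scale, the mutant minus sibling difference fitted by limma was -1.27 (SE 0.27), -1.37 (0.28), -1.61 (0.22) and -1.74 (0.29) at 2 mm for B73_24PHAS_14671, B73_24PHAS_14681, B73_24PHAS_32590 and B73_24PHAS_48391, in that order. At 5 mm the same difference was -4.01 (0.24), -4.04 (0.25), -3.84 (0.19) and -5.26 (0.26). A call required an adjusted p under 0.05 over all PHAS loci and a fold change over 1.5. All 4 loci were called lower at 2 mm, where 17.0% of all loci and 70.1% of meiotic loci were. At 5 mm all 4 were called lower, where 21.1% of all loci and 84.4% of meiotic loci were. The rule used both contrasts, so nothing is read from these counts. B73_24PHAS_14671 and B73_24PHAS_14681 were not called at 2 mm without ago18HM-2mm replicate 1, where their differences were -1.06 and -1.19. Without ago18HT-2mm replicate 1 the differences at 2 mm were -1.51, -1.63 and -2.04 at B73_24PHAS_14671, B73_24PHAS_14681 and B73_24PHAS_48391.

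At 2 mm the 4 loci had smaller decreases than most meiotic loci. The rule compared the decreases at both lengths, so their places are a description only. The median difference at 2 mm was -1.49 over the 4 loci, -1.99 over the 154 meiotic loci and -0.02 over all PHAS loci. Ordered from the largest decrease, they came at places 123, 118, 105 and 98 of 154. At 5 mm their median of -4.03 equalled the meiotic median of -4.03, with 0.01 over all loci. B73_24PHAS_14671, B73_24PHAS_14681 and B73_24PHAS_32590 came at places 80, 77 and 91, and B73_24PHAS_48391 came at place 4. The loss at 5 mm was thus near the middle of the class at all but B73_24PHAS_48391.

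**Figure D2:**
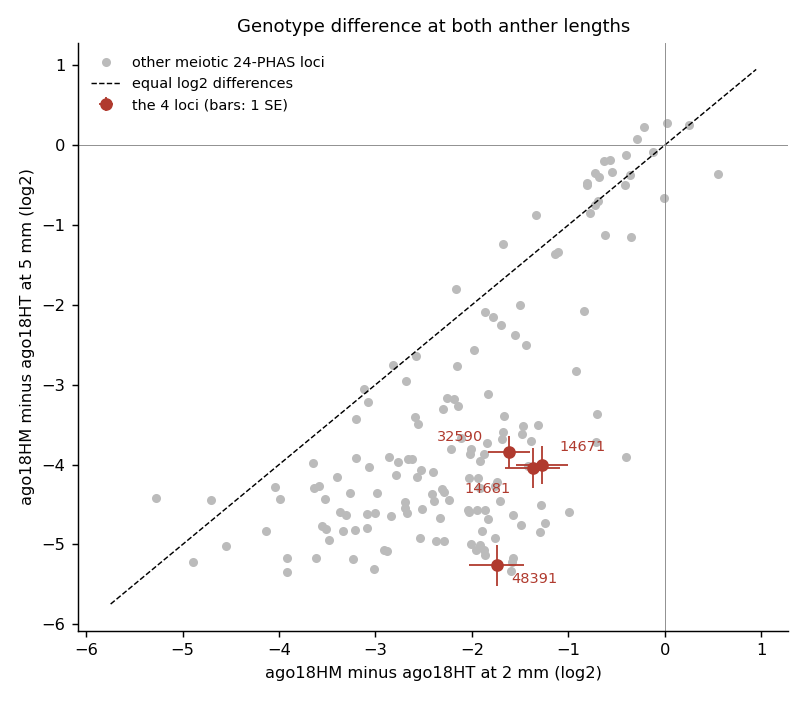
Mutant minus sibling difference in log2(CPM + 1) at 2 mm (horizontal) and 5 mm (vertical) for the 154 meiotic 24-PHAS loci, with the 4 loci in red with bars of 1 SE and a dashed line of equal differences. The 4 loci lie below the line, between -1.27 and -1.74 at 2 mm, and B73_24PHAS_48391 lies lowest of them at -5.26 at 5 mm.

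The interaction term, the 5 mm difference minus the 2 mm difference, was -2.74 (SE 0.36) for B73_24PHAS_14671, -2.67 (0.38) for B73_24PHAS_14681, -2.23 (0.29) for B73_24PHAS_32590 and -3.52 (0.39) for B73_24PHAS_48391, in log2 units. Taken from arithmetic means in place of the fit, the ratio of sibling to mutant mean CPM was 6.57, 6.27, 4.71 and 11.3 times as large at 5 mm as at 2 mm. The median term was -2.70 over the 4 loci, -1.48 over the meiotic loci and -0.12 over all loci. All 4 were called, against 8.04% of all loci and 33.8% of meiotic loci. Nothing is read from this count because the loci were chosen for this term.

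These terms were large, but not the largest of the class. B73_24PHAS_48391 came at place 6 of 154, B73_24PHAS_14671 at 22, B73_24PHAS_14681 at 24 and B73_24PHAS_32590 at 40, so 36 other meiotic loci had a lower term than the last of the 4. The description "largest growth of the difference" was hence not borne out by the size of the term. Ordered by the p-value of the term in place of its size, the 4 loci came at places 3, 4, 2 and 1 of all loci in the order B73_24PHAS_14671, B73_24PHAS_14681, B73_24PHAS_32590 and B73_24PHAS_48391, an order that also weighs the spread between replicates. The loci were chosen for this term, so nothing is read from these places. The 4 lowest terms belonged to B73_24PHAS_35075 (-3.74, SE 0.92), B73_24PHAS_35082 (-3.63, 0.92), B73_24PHAS_26989 (-3.61, 0.89) and B73_24PHAS_56665 (-3.60, 0.92). At the other end, the term was 0.46 for B73_24PHAS_46438, which lay under 4 CPM in every library, and 0.86 for B73_24PHAS_51824.

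The 4 loci had closer replicates than the 4 loci with the lowest terms. They led the p-value order of the term for which they were chosen. That order favours close replicates, so nothing is read from their closeness. The within-group SD of log2(CPM + 1) was 0.31, 0.33, 0.22 and 0.34 for the 4 loci, places 11, 19, 4 and 20 of 154 from the lowest, against a meiotic median of 0.47. At B73_24PHAS_35075 it was 0.86, and its ago18HT libraries at 2 mm held 126.5, 719.8 and 810.7 CPM. The lowest of these was replicate 1. Without that library its term was -2.87, and those of B73_24PHAS_35082, B73_24PHAS_26989 and B73_24PHAS_56665 were -2.76, -2.76 and -2.73. Without it B73_24PHAS_48391 had the lowest term of the class (-3.22), and B73_24PHAS_14671, B73_24PHAS_14681 and B73_24PHAS_32590 came at places 20, 21 and 27 (-2.50, -2.42 and -2.21).

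The 4 loci reached their interaction terms by different routes. In ago18HT, abundance at 5 mm was 2.74 times that at 2 mm for B73_24PHAS_14671 and 3.20 times for B73_24PHAS_14681, but 1.24 times for B73_24PHAS_32590 and 1.62 times for B73_24PHAS_48391. In ago18HM, abundance at 2 mm was 2.40 and 1.96 times that at 5 mm for the chromosome 2 pair, 3.82 times for B73_24PHAS_32590 and 6.96 times for B73_24PHAS_48391. In CPM, the larger change between lengths was in the mutant at B73_24PHAS_32590 and B73_24PHAS_48391. It was in the siblings at B73_24PHAS_14681, while at B73_24PHAS_14671 both changes were of like size. The pair is not taken as independent, so no difference in route is read between its members. As a share of the summed meiotic 24-PHAS CPM, their mutant means at 5 mm were 0.97 and 1.18 times those at 2 mm.

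On the log2 scale, the 5 mm minus 2 mm difference in ago18HT was 1.49 (SE 0.24) for B73_24PHAS_14671 and 1.71 (0.25) for B73_24PHAS_14681, places 9 and 8 of 154 from the highest. It was 0.29 (0.19) for B73_24PHAS_32590 and 0.73 (0.26) for B73_24PHAS_48391, places 87 and 50. The pair was called higher and the other 2 were not, where 4.70% of all loci and 6.49% of meiotic loci were called. In ago18HM the difference was -1.24 (0.27), -0.96 (0.28), -1.94 (0.22) and -2.79 (0.29), places 62, 89, 20 and 2 of 154 from the lowest. All 4 were called lower, where 20.2% of all loci and 42.9% of meiotic loci were. The call of B73_24PHAS_14681 was lost in 7 of the 11 fits that each left out 1 library (range -1.13 to -0.79): without either ago18HM-2mm library, any ago18HM-5mm library, ago18HT-2mm replicate 3 or ago18HT-5mm replicate 1. That of B73_24PHAS_14671 was lost without ago18HM-2mm replicate 2 (-1.03). Without ago18HT-2mm replicate 1 the difference in ago18HT was 1.26, 1.45 and 0.44 at B73_24PHAS_14671, B73_24PHAS_14681 and B73_24PHAS_48391.

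The length differences of the 4 loci had a median of 1.11 in ago18HT, against 0.39 over the meiotic loci and -0.00 over all loci, and of -1.59 in ago18HM, against -1.06 and -0.22. Every ago18HT library at 5 mm lay above every one at 2 mm at all 4 loci, as at 22.9% of all loci and 30.5% of meiotic loci. Every ago18HM library at 5 mm lay below every one at 2 mm at all 4 loci, as at 34.7% of all loci and 63.6% of meiotic loci. Every ago18HM library lay below every ago18HT library at all 4 loci at both lengths. That order held at 25.5% of all loci and 81.8% of meiotic loci at 2 mm, and at 24.7% and 89.6% at 5 mm. The 4 orders held at once at 27 loci, or 4.10% of all loci, and all 27 were meiotic 24-PHAS loci (17.5% of that class).

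**Figure D3:**
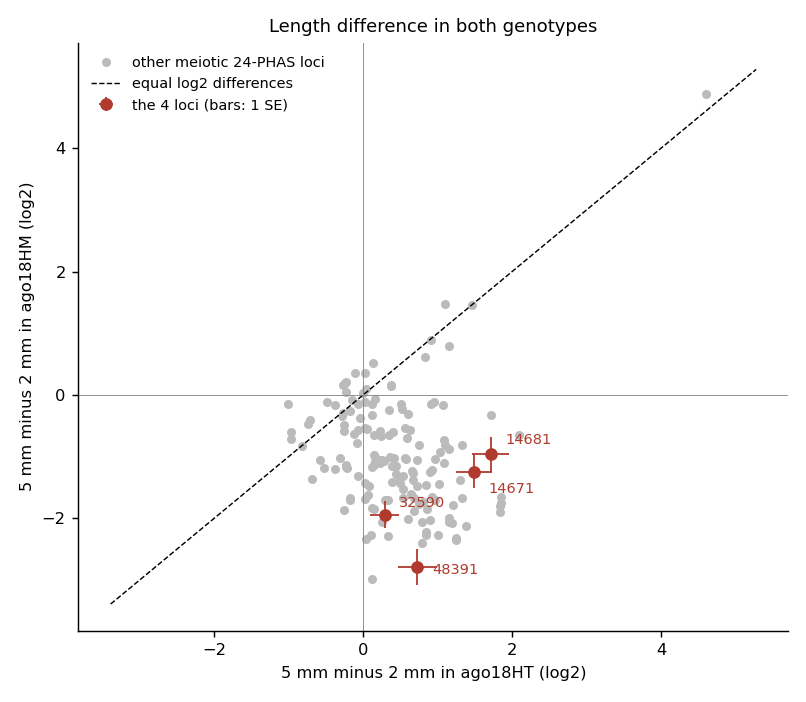
5 mm minus 2 mm difference in log2(CPM + 1) in the siblings (horizontal) and the mutant (vertical) for the 154 meiotic 24-PHAS loci, with the 4 loci in red with bars of 1 SE and a dashed line of equal differences. B73_24PHAS_14671 and B73_24PHAS_14681 lie to the right at 1.49 and 1.71, and B73_24PHAS_48391 lies near the bottom at -2.79.

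Most of the meiotic class was lower in the mutant, with 151 of 154 loci below 0 at 2 mm and 150 at 5 mm, so the loci were also expressed as a share of the summed meiotic 24-PHAS CPM of each library. In ago18HT-2mm, B73_24PHAS_14671 took 0.531%, 0.498% and 0.418% and B73_24PHAS_14681 took 0.486%, 0.468% and 0.418%. In the mutant at 2 mm these were 1.16% and 0.995%, and 1.07% and 0.861%. Both loci thus made up a larger share of what was left in the mutant at 2 mm. At 5 mm their mean shares were alike in the 2 genotypes, 1.01% and 1.04% for B73_24PHAS_14671 and 1.12% and 1.13% for B73_24PHAS_14681 in ago18HT and ago18HM.

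B73_24PHAS_32590 took 1.82%, 0.953% and 1.05% of the meiotic CPM in ago18HT-2mm. The high value was replicate 1, the library with the low meiotic sum, in which this locus was not low. In the mutant at 2 mm it took 2.41% and 1.95%, and at 5 mm its mean share was 1.10% in ago18HT and 1.31% in ago18HM. B73_24PHAS_48391 took a mean of 0.716% in ago18HT and 1.18% in ago18HM at 2 mm. At 5 mm its share was 0.911%, 0.949% and 0.765% in ago18HT and 0.311%, 0.385% and 0.445% in ago18HM. B73_24PHAS_48391 was the only one of the 4 whose mean share at 5 mm was lower in the mutant.

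On the log2 scale of these shares, the genotype difference at 2 mm was above 0 at all 4 loci (1.16, 1.07, 0.83 and 0.69), and the interaction terms were -1.11, -1.04, -0.60 and -1.91. The terms kept their sign and were smaller than on the CPM scale, and that of B73_24PHAS_32590 was no longer called. The genotype difference at 2 mm was thus below 0 in CPM and above 0 as a share of the meiotic class. The shares shifted the all-loci median of this difference by 2.44, and the meiotic median in CPM was -1.99. A meiotic locus at the class median would thus also rise in share, so the rise is not particular to the 4 loci.

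**Figure D4:**
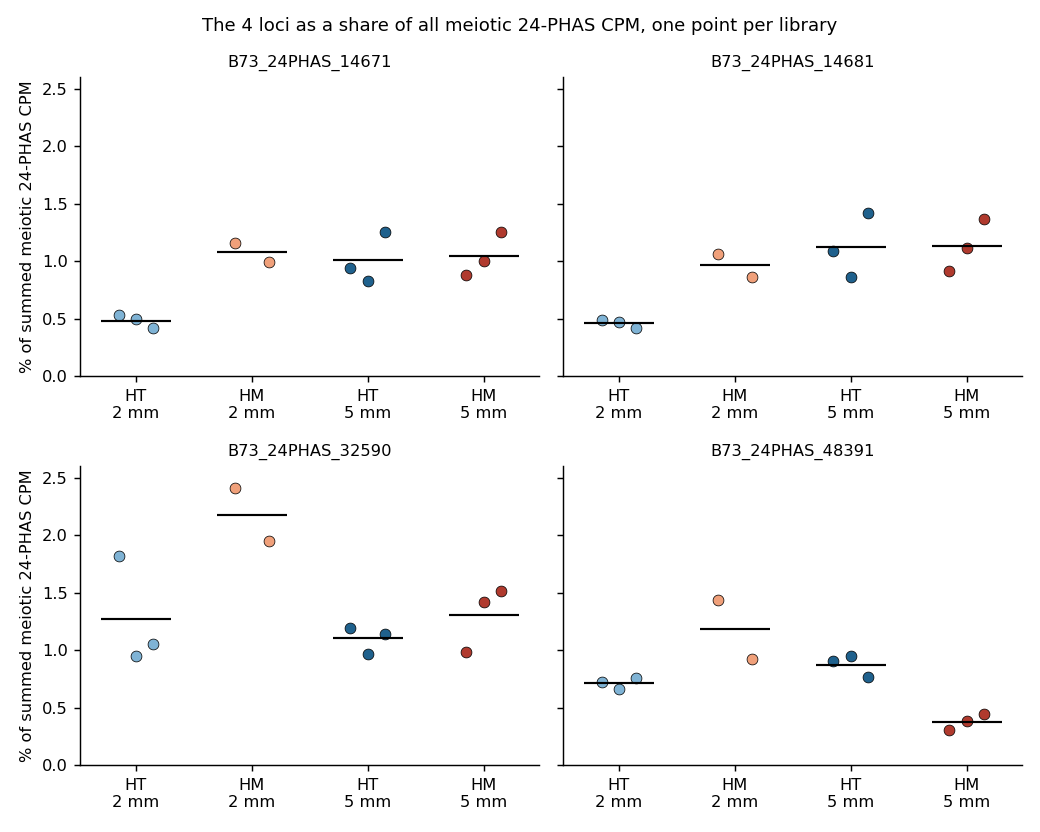
Share of the summed meiotic 24-PHAS CPM taken by each of the 4 loci, in percent, with 1 point per library and a line at the group mean, by genotype (HT, HM) and anther length. At 2 mm the mean share is higher in HM at all 4 loci, and at 5 mm it is lower in HM at B73_24PHAS_48391 alone.

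B73_24PHAS_14671 and B73_24PHAS_14681 rose and fell together. Their log2(CPM + 1) had a Pearson r of 0.996 over the 11 libraries, which share depth and group, and which may count reads common to both loci at each. The ratio of B73_24PHAS_14671 to B73_24PHAS_14681 ranged at 2 mm from 0.999 to 1.09 in the siblings and from 1.09 to 1.16 in the mutant. At 5 mm it ranged from 0.869 to 0.953 in the siblings and from 0.893 to 0.957 in the mutant. The pair thus differed a little in its balance between lengths and hardly between genotypes at 5 mm.

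The other 4 24-PHAS loci of this stretch lie within 200000 bases of the pair, and the 6 span 132203 bases of chromosome 2. The sequence of B73_24PHAS_14666 is shown beside that of the pair because it begins with the same 10 bases, which only these 3 of the 154 meiotic loci do. Capitals mark the bases that differ, counted from 1 at the 5′ end: U11G, A12G, C19A, A20U, C22U, U23G and U24C, with the base of the pair first.
B73_24PHAS_14671: agagaauuccuaaugaagcaucuu
B73_24PHAS_14666: agagaauuccGGaugaagAUuUGC

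The pair kept more of its phasiRNAs in the mutant at 2 mm than these neighbours did. The pair was chosen for a loss much larger at 5 mm than at 2 mm, and the neighbours were not. The contrast between them is thus a description and no evidence about the cluster. The siblings had 15.2 times the mutant mean at B73_24PHAS_14666, 13.0 times at B73_24PHAS_14668, 10.4 times at B73_24PHAS_14669 and 6.57 times at B73_24PHAS_14677, against 2.48 and 2.66 times at the pair. At 5 mm the ratios were 37.1, 19.9, 24.3 and 24.6, against 16.3 and 16.7. The interaction terms of the neighbours were -1.25 (SE 0.41), -0.66 (0.40), -1.23 (0.43) and -1.93 (0.50), against -2.74 (0.36) and -2.67 (0.38).

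The levels behind these ratios differed in both genotypes. In ago18HT-2mm the neighbours averaged 2614, 2309, 1891 and 1430 CPM and the pair 891 and 850 CPM. In ago18HM-2mm the neighbours averaged 171.6, 177.3, 181.7 and 217.6 CPM and the pair 359.6 and 319.3 CPM. The pair was thus lower than its neighbours in the siblings at 2 mm and higher than them in the mutant. The choice of the pair used these values, so this too is a description. At 5 mm in ago18HT, the neighbours averaged 2483, 1564, 2070 and 2171 CPM and the pair 2442 and 2723 CPM.

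**Figure D5:**
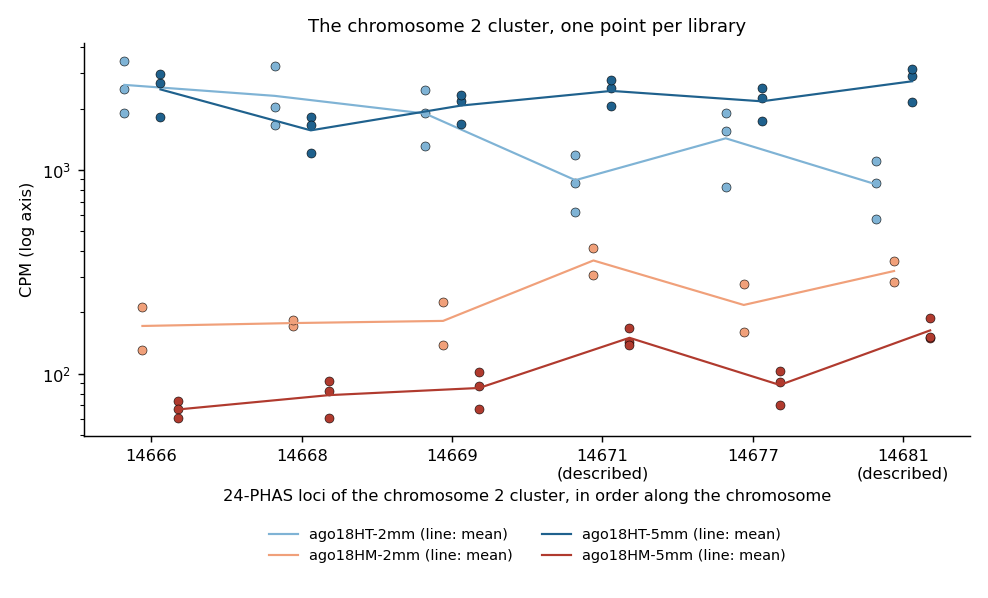
CPM (log axis) of the 6 meiotic 24-PHAS loci of the chromosome 2 cluster in the 11 libraries, in order along the chromosome, with 1 point per library and lines joining the group means. At 2 mm B73_24PHAS_14671 and B73_24PHAS_14681 have the lowest sibling means (891 and 850 CPM) and the highest mutant means (359.6 and 319.3 CPM) of the 6. Both loci were chosen with these values, so this is a description.

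For each locus, the 3 most similar loci were found as the smallest distance between log2(CPM + 1) profiles centred on their means over the 11 libraries. Each member of the pair was nearest to the other (distance 0.45), followed by B73_24PHAS_35107 and B73_24PHAS_39768, the first at 0.997 from B73_24PHAS_14671 and both at 0.97 and 1.04 from B73_24PHAS_14681. B73_24PHAS_32590 was nearest to B73_24PHAS_182 (0.69), B73_24PHAS_52232 (0.89) and B73_24PHAS_25686 (1.18). B73_24PHAS_48391 was nearest to B73_24PHAS_35078 (0.97), B73_24PHAS_23685 (1.04) and B73_24PHAS_35085 (1.08). All were meiotic 24-PHAS loci.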

How the data were processed

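AGO-bound small RNAs from TraPR columns were made into RealSeq-AC libraries by the authors. Per the labels and the study's methods, reads were aligned to B73 RefGen_v5 with Bowtie 1.3.1 and counted with featureCounts 1.6.3, with reads of several positions included. Whether such a read was counted at every position depends on the alignments reported, which the methods do not state. The deposited values are CPM made by the authors with edgeR 4.0.2, so low loci carry few reads and shared sequences can be counted more than once. Locus class, position, strand and most abundant small RNA came from the study's annotation, and neighbouring genes from RefSeq on the same assembly.

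Here log2(CPM + 1) was fitted with limma 3.58.1 (R 4.3.3) over 4 group means and 11 libraries, with a trended prior. All loci had at least 1 CPM in 2 libraries, so the filter removed none. Benjamini-Hochberg adjustment ran over all loci, and a call required an adjusted p under 0.05 and a fold change over 1.5. The fit was tested on simulated data. Reads per library came from the smallest CPM step. The named loci were the 4 members, 24-PHAS loci within 200000 bases, the 3 nearest profiles, the 4 lowest and 2 highest meiotic interaction terms and relatives within 8 differences in sequence. Members and lists were chosen with earlier results of these data known. Alternatives covered the pseudocount, filter, scaling, prior, replicate block, thresholds and each library left out.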

Additional observations from a re-analysis of the deposited data

Results flagged for a closer look

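At all 4 loci the difference in CPM between 5 mm and 2 mm ran in opposite directions in the 2 genotypes. Every ago18HT library at 5 mm lay above every ago18HT library at 2 mm, as at 22.9% of all loci and 30.5% of meiotic loci. Every ago18HM library at 5 mm lay below every ago18HM library at 2 mm, as at 34.7% of all loci and 63.6% of meiotic loci. Of the 154 meiotic loci, 117 had a length difference above 0 in ago18HT and 137 below 0 in ago18HM. The direction in each genotype was thus common in the class. The rise in ago18HT was not called at B73_24PHAS_32590 (0.29, SE 0.19) or B73_24PHAS_48391 (0.73, SE 0.26). As a share of the summed meiotic CPM, the ago18HT mean of B73_24PHAS_32590 at 5 mm was 0.87 times that at 2 mm. The interaction term was -2.74 at B73_24PHAS_14671, -2.67 at B73_24PHAS_14681, -2.23 at B73_24PHAS_32590 and -3.52 at B73_24PHAS_48391 on the log2 scale. The loci were chosen for this difference, so their calls on this term are no evidence for it, and no test independent of the choice was run. B73_24PHAS_14671 and B73_24PHAS_14681 share their most abundant small RNA and are not taken as independent instances.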

How the results depend on the processing

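The interaction terms of all 4 loci stayed below 0 in every alternative that was run, and called in all but the share of meiotic CPM, where B73_24PHAS_32590 (-0.60) was not. The loci were chosen on this term, so this is no sign of stability. Leaving out each library in turn gave medians of -2.93 to -2.46 for the interaction, -1.65 to -1.31 for the genotype difference at 2 mm, -4.16 to -3.93 at 5 mm, 0.85 to 1.299 for the length difference in ago18HT and -1.79 to -1.39 in ago18HM. Of the 4 loci, 2 to 4 were then called lower at 2 mm and 2 to 4 between lengths in ago18HM. B73_24PHAS_14671 and B73_24PHAS_14681 lost both calls, those at 2 mm without ago18HM-2mm replicate 1 (-1.06 and -1.19) and between lengths without ago18HM-2mm replicate 2 (-1.03 and -0.79). Over all loci, the calls ranged from 66 to 126 at 2 mm, 134 to 139 at 5 mm, 13 to 56 for the interaction, 66 to 155 in ago18HM and 16 to 44 in ago18HT, against 112, 139, 53, 133 and 31 with all libraries.

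Centring on 21-PHAS loci shifted the all-loci median by -0.16 for the 2 mm genotype difference and by 0.17 for the length difference in ago18HM, where B73_24PHAS_14681 was then not called, nor with median ratio scaling, which shifted the median by 0.12 at 5 mm. The share of meiotic CPM shifted it by 2.44 (2 mm) and 4.06 (5 mm). On that scale the genotype difference at 2 mm was 1.16, 1.07, 0.83 and 0.69 (median 0.95, with 0 of the 4 called lower). At 5 mm it was 0.056, 0.024 and 0.22 at the first 3 loci and -1.21 at B73_24PHAS_48391 (median 0.040, 1 called). The median interaction term was -1.08. The length difference was 0.22 at B73_24PHAS_14681 in ago18HM (median -0.41, 1 called) and -0.15 at B73_24PHAS_32590 in ago18HT (median 0.67). The sign of that -0.15 rests on ago18HT-2mm replicate 1, where the share was 1.82%, against 0.953% and 1.05% in replicates 2 and 3. A fit of the shares without that library was not run. Counts over all loci on that scale were 25 at 2 mm, 33 at 5 mm, 23 for the interaction, 13 in ago18HM and 6 in ago18HT.

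The interaction count was 35 with a pseudocount of 5, 25 centred on 21-PHAS loci, 34 with median ratio scaling and 12 at an adjusted p under 0.01. The count in ago18HM was 73 when centred and 49 at 0.01, where 2 of the 4 loci were called. That in ago18HT was 49 when centred, 47 with median ratio scaling and 14 at 0.01. Samples with the same replicate number showed no common deviation (median r -0.18 over 15 pairs, against 0.10 over 30 pairs with different numbers). The deviations were taken from means of only 2 or 3 libraries, so this check cannot exclude a pairing. A replicate block gave a median interaction term of -2.73 and 36 calls. A count model on reads recovered from CPM was not run. The CPM were whole multiples of the step of each library, with a largest deviation of 3.3e-05 reads. The step itself was estimated, so the recovered reads remain estimates. The 2 libraries of ago18HM-2mm limit every value at 2 mm.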
